A study of Mus musculus with 24 samples.

Results

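All 12 libraries from mice on a rescue diet were compared with all 12 libraries from mice on a normal diet, whichever injection the mice had received, so the comparison used 24 of 24 libraries. The injection entered as an additive term, and the quantity tested for each gene is the diet difference averaged over both injections. Libraries were assigned by the diet and the injection named in their titles. Every mouse was a male Cyp27b1 null, unable to make the hormone 1,25-dihydroxyvitamin D3 (1,25D), and every mouse ate a purified diet without vitamin D from weaning at 3 weeks until 8 weeks of age. Calcium made up 0.47% and phosphorus 0.3% of the normal diet. In the rescue diet these were raised to 2% and 1.25%, and 20% lactose was added. At 8 weeks the mice were injected with vehicle or with 1,25D at 2 ng/g, and duodenal RNA was taken 6 h later. That gave 6 libraries for each of normal diet with vehicle, normal diet with 1,25D, rescue diet with vehicle and rescue diet with 1,25D. The labels count 12 mice per diet and 8 injected mice per group, which does not match 6 libraries per group, and they do not tie a library to an animal. The p-values below therefore measure the spread between these libraries. No wild-type mouse and no diet with vitamin D is analysed here.

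The duodenum absorbs calcium by a regulated route that needs 1,25D and its receptor Vdr, and by a passive route between cells that works when the gut holds much calcium. A diet high in calcium, phosphorus and lactose is used to keep blood minerals up in mice without the hormone or its receptor. The epithelium is renewed continuously: stem and progenitor cells divide in the crypts, and their offspring mature into absorptive enterocytes as they move up the villus, so genes of cell division and of absorption mark different zones of the same sheet. The RNA came from whole duodenum, and fewer cells of a type cannot be told apart from less RNA per cell.

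Values are RPKM, reads scaled to gene length and library size, as deposited. Summed RPKM lay between 541395 and 697913 per library. Absolute depth is unknown; from the steps between low values, relative depth ran from 0.618 to 1.67 over 23 libraries, and normal vehicle replicate 6 could not be placed. The difference in relative depth between the diets did not pass an exact permutation test within injections (0.969 ± 0.205, SD, n = 11, on the normal diet and 1.08 ± 0.294, SD, n = 12, on the rescue diet; two-sided p = 0.319, adjusted over 5 single values p = 0.399). Cyp27b1 was at or below 0.452 RPKM in all libraries; which part of the gene was removed is not given, so this checks no label. All 15 enterocyte markers were measured and held 0.307 to 2.26% of the summed RPKM. Normal vehicle replicate 6 stood apart with 17.0% of its summed RPKM in exocrine pancreas genes, against at most 5.85% elsewhere, and the results of the lists it moves most are also given without it.

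No gene was called for the average diet effect. Of 20006 genes tested with limma on log2(RPKM + 0.5), 0 (0%) had a Benjamini-Hochberg adjusted p under 0.05, and the smallest adjusted p was 0.300. At an unadjusted p under 0.05 there were 1899 genes, where 1000 are due by chance: 1807 (9.03%) were higher and 92 (0.46%) lower on the rescue diet. The lower count was 227 without normal vehicle replicate 6. This split moved with the scaling. As deposited, the median log2 difference over all genes was 0.10 and 76.7% of genes lay above 0. Quantile normalization brought the median to 0.00 and the counts to 838 on the higher and 596 on the lower side. With median-of-ratios scaling they were 0.01, 773 and 523. A gene value below is therefore to be read against a shift of 0.10, not against 0.

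The test had the precision to bound most differences. The median standard error was 0.14 on the log2 scale, and for 97.2% of genes the 95% interval of the diet difference lay inside a 2-fold change in either direction; for 14566 genes, 72.8%, it lay inside 1.5-fold. In no gene did all 12 rescue libraries lie above, or all below, all 12 normal libraries. Only 46 genes had a fitted difference of log2 1 or more, 5 of them higher and 41 lower, and 19 of the 41 are genes of the exocrine pancreas (14 of 34 without normal vehicle replicate 6). In the same fit 230 genes were called for the injection. The share of the total variance of the log2 values fitted by diet was 4.53%, and by the injection 7.08%. Any split of the 24 libraries takes some share by chance, and these shares were not tested. Of the variance 31.2% lay along the first principal component, of which diet explained 0.78%. Diet explained 10.9% of component 3, which held 11.6% of the variance, and 21.2% of component 6, which held 3.1%. Down-weighting variable libraries (array weights between 0.191, for normal vehicle replicate 6, and 2.3) gave 50 calls (0.25%), 44 higher and 6 lower, while each of the 24 fits that left out 1 library gave 0. On the normal diet the weights ran from 0.191 to 1.05 under vehicle and from 1.33 to 2.17 after 1,25D. The weighted fit therefore leans towards the 1,25D libraries and is not an equal average over both injections.

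**Figure D1:**
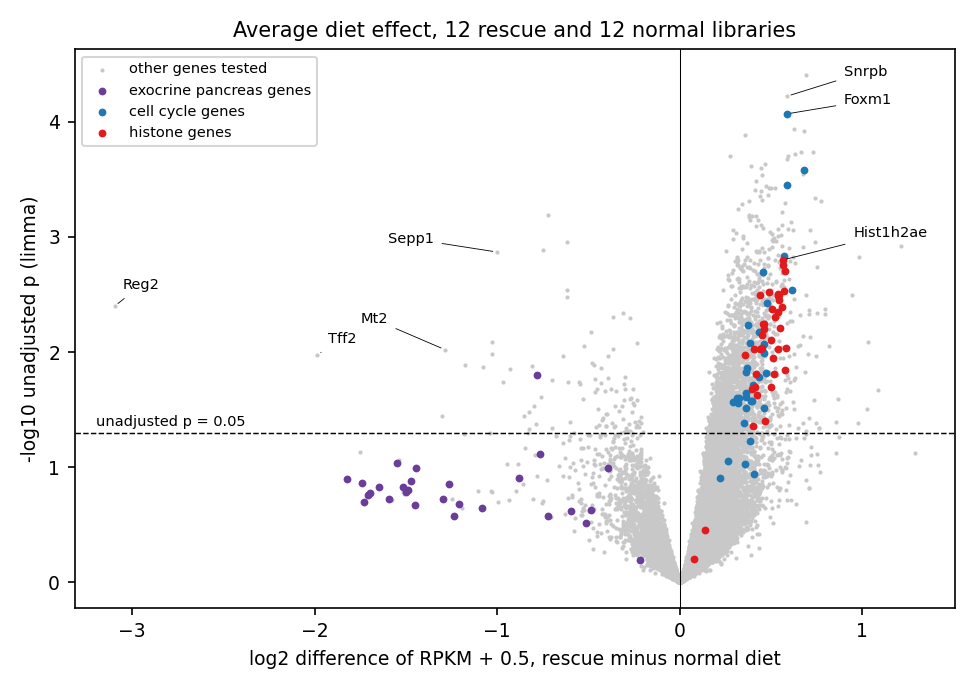
The average diet effect of the 20006 genes tested: log2 difference of RPKM + 0.5 (rescue minus normal, x axis) against -log10 of the unadjusted p from limma (y axis). Cell cycle genes (blue) and histone genes (red) lie to the right, exocrine pancreas genes (purple) to the left mostly under the dashed line, and no gene passed the adjusted threshold.

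The rescue-high genes named first are those with the smallest p among genes with a proper symbol and a mean of at least 1 RPKM, so their size follows from the choice. Snrpb, a core protein of the spliceosomal small nuclear ribonucleoproteins, ranged over 4.56, 8.53 and 11.4 RPKM on the normal diet (lowest, median and highest of 12) and over 9.73, 12.8 and 17.1 RPKM on the rescue diet. All 12 rescue libraries were above the normal median, and 9 were above every normal library. Its log2 difference was 0.59 (SE 0.12, 95% interval 0.34 to 0.84, limma adjusted p = 0.300), 0.56 under vehicle and 0.62 after 1,25D. Ube2l3, a ubiquitin-conjugating enzyme, ranged over 16.1, 19.2 and 21.9 RPKM against 21.5, 23.2 and 28 RPKM. There 10 of 12 normal libraries were below every rescue library, with a log2 difference of 0.27 (SE 0.06, adjusted p = 0.300).

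The cell death genes Ripk3 and Bax were both higher in mean on the rescue diet. Ripk3, the kinase that starts necroptosis, went from a median of 5.56 RPKM (range 3.00 to 8.16) to 8.55 RPKM (5.34 to 11.8), with a log2 difference of 0.63 (SE 0.14). Bax, a pore-forming protein of apoptosis, went from 4.07 RPKM (2.63 to 5.03) to 5.51 RPKM (3.81 to 7.40), a log2 difference of 0.44 (SE 0.10). For each, 11 of 12 rescue libraries were above the normal median and the ranges overlapped. Fam89a, at 0.736 and 1.49 RPKM in median, and Ptpla, which takes part in the elongation of long fatty acids, at 7.89 and 11.5 RPKM, had log2 differences of 0.68 (SE 0.15) and 0.47 (SE 0.11), with all 12 rescue libraries above the normal median in both. Nespas, an antisense transcript of the imprinted Gnas locus, was at 0.469 and 1.09 RPKM in median (log2 0.59, SE 0.14). The libraries were made with a directional kit, but whether counting used the strand is not stated, so reads of Nespas and of the genes it overlaps may be mixed. The adjusted p of each of these genes was 0.300.

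**Figure D2:**
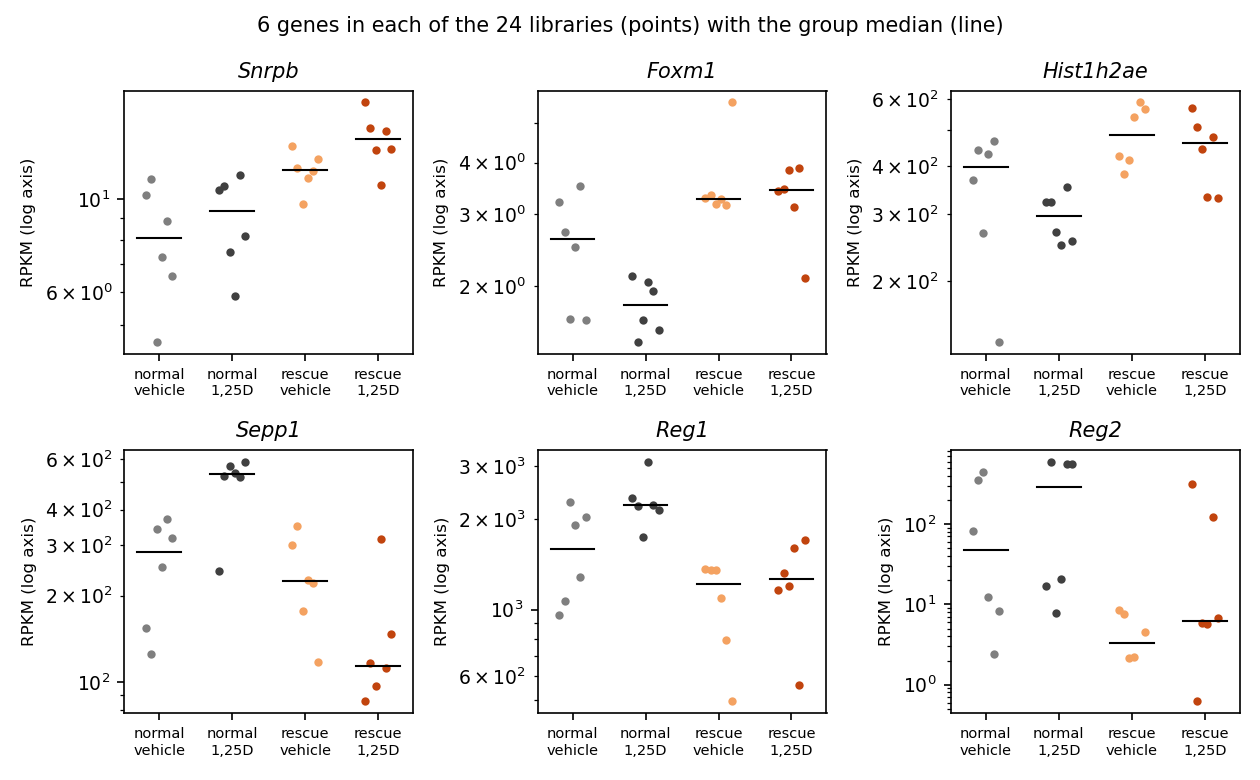
RPKM (log axis) of 6 genes in each of the 24 libraries (points), with the median of each group of 6 as a line. Snrpb, Foxm1 and Hist1h2ae are higher in median in both rescue groups than in both normal groups, Reg1 is lower in both, Sepp1 differs mostly after 1,25D, and Reg2 spreads widely, from 2.44 to 446 RPKM within the normal vehicle group.

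Genes of cell division differed to the same side throughout. All 33 members of the cell cycle and DNA replication list had a higher mean on the rescue diet; 28 of 33 had an unadjusted p under 0.05, beside 9.03% of all genes, and 0 were called. Their median log2 difference was 0.39 against 0.10 over all genes, and it was 0.36 under vehicle (11 of 33 at an unadjusted p under 0.05, beside 3.68%) and 0.43 after 1,25D (19 of 33, beside 7.7%). The vehicle and the 1,25D libraries were fitted apart and share none. No member had an unadjusted interaction p under 0.05, beside 5.59% and 1.26% of all genes with a more negative and a more positive effect after 1,25D. With quantile normalization 19 of 33 had an unadjusted p under 0.05, beside 4.19% of all genes, with a median of 0.29. Without normal vehicle replicate 6, the library with the lowest level of these genes, there were 22 of 33, beside 6.37%, with a median of 0.34. Per library, the mean log2 value over the list ranged from 2.68 to 3.71 (median 3.39) on the normal diet. On the rescue diet it ranged from 3.29 to 4.05 (median 3.76), so the diets overlapped. Members of the list can vary together between libraries, so these counts are not 33 independent results. The list was chosen with earlier results of these data known.

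Foxm1, the transcription factor that drives genes of mitosis, ranged over 1.46, 2.00 and 3.51 RPKM on the normal diet and 2.09, 3.31 and 5.61 RPKM on the rescue diet. All 12 rescue libraries were above the normal median and 7 normal libraries were below every rescue library; the log2 difference was 0.59 (SE 0.13, 95% interval 0.33 to 0.84, adjusted p = 0.300). Its group medians were 2.60 RPKM for normal diet with vehicle, 1.80 for normal with 1,25D, 3.27 for rescue with vehicle and 3.42 for rescue with 1,25D. Gins2 and Tyms belong to the same list. Gins2, a subunit of the replicative helicase, had medians of 2.77 and 4.95 RPKM (log2 0.68, SE 0.16), and Tyms, which makes thymidylate, 7.94 and 11.5 RPKM (log2 0.59, SE 0.14). Dtymk, outside the list, which phosphorylates thymidylate on its way to thymidine triphosphate, had medians of 18.3 and 26.8 RPKM (log2 0.66, SE 0.15), with 11 of 12 rescue libraries above the normal median for Tyms and Dtymk and 12 of 12 for Gins2.

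Traip and Esco2 are outside the list and were named for their small p, which favours large differences. Traip, a ubiquitin ligase of the replication stress response, had medians of 1.42 and 3.15 RPKM (log2 0.73, SE 0.17). Esco2, which acetylates cohesin so that sister chromatids stay together, had medians of 6.74 and 10.7 RPKM (log2 0.59, SE 0.14). Bub1, a kinase of the spindle checkpoint, ranged over 2.98, 5.73 and 10.4 RPKM on the normal diet and 5.56, 9.43 and 12.4 RPKM on the rescue diet, with a log2 difference of 0.57 (SE 0.16, adjusted p = 0.300). The ranges of each gene overlapped. With array weights, Foxm1, Tyms and Bub1 were the members of this list among the 50 calls (log2 0.63, 0.62 and 0.63, adjusted p = 0.0420, 0.0425 and 0.0425), and Snrpb, Ripk3, Traip, Dtymk, Ube2l3, Esco2, Ptpla and Bax were also called.

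Replication-dependent histones, made in S phase to package new DNA, were the list with the highest median. Of 39 members in the files 38 were tested; all 38 had a higher mean on the rescue diet and 36 had an unadjusted p under 0.05, beside 9.03% of all genes, with a median log2 difference of 0.50. The summed RPKM of the list held 0.655, 1.38 and 1.96% of the total on the normal diet (lowest, median and highest) and 1.34, 1.94 and 2.21% on the rescue diet. Under vehicle 2 of 38 reached an unadjusted p under 0.05, near the 3.68% of all genes, with a median of 0.45, and after 1,25D 32 of 38, beside 7.7%, with a median of 0.54, while 0 had an unadjusted interaction p under 0.05. Without normal vehicle replicate 6 the median was 0.38 with 34 of 38 (6.37% of all genes), and with quantile normalization it was 0.42 with 34 of 38 (4.19% of all genes). Near-identical histone copies share reads, so members are not independent and the split of reads between them is uncertain.

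Hist1h2ae, an H2A gene of the large histone cluster, ranged over 138, 322 and 466 RPKM on the normal diet and 330, 461 and 589 RPKM on the rescue diet. All 12 rescue libraries were above the normal median, and the log2 difference was 0.56 (SE 0.16, adjusted p = 0.300), 0.55 under vehicle and 0.57 after 1,25D. Hist1h2ab and Hist1h2an, also H2A genes, had medians of 481 and 684 RPKM and of 546 and 749 RPKM (log2 0.57 and 0.58). Hist1h2bm, an H2B gene, had medians of 26.7 and 43.7 RPKM (log2 0.57). In these 3 genes 11 of 12 rescue libraries were above the normal median.

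Promoters of cell cycle and histone genes are known for short shared elements, and 3 are shown, those of Bub1, Hist1h2ae and Hist1h2ab, as examples of how the windows of these lists differ. They run from 250 bases before to 50 bases after the gene start (RefSeq, build GRCm38.p6, whereas the deposited values are from mm9), 5′ to 3′ on the strand of the gene. Capitals mark a CCAAT box (CCAAT, or ATTGG on the other strand), the CHR element (TTTGAA) and a TATA box (TATAAA, or TTTATA on the other strand). Bub1 lies on the minus strand at chr2:127831810-127832109, Hist1h2ae (H2ac8 in RefSeq) on the minus strand at chr13:23571171-23571470 and Hist1h2ab (H2ac4) on the plus strand at chr13:23750838-23751137.
Bub1: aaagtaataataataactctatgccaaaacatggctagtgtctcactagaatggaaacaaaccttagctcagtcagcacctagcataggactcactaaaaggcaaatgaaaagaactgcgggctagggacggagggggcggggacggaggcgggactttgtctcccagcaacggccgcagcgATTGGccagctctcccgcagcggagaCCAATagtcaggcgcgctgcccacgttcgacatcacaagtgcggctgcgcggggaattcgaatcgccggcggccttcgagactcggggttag
Hist1h2ae: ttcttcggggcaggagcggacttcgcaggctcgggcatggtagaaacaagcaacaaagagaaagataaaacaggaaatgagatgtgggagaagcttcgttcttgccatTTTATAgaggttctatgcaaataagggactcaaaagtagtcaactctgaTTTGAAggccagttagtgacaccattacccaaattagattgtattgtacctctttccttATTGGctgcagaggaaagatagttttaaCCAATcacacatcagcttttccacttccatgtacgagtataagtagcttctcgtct
Hist1h2ab: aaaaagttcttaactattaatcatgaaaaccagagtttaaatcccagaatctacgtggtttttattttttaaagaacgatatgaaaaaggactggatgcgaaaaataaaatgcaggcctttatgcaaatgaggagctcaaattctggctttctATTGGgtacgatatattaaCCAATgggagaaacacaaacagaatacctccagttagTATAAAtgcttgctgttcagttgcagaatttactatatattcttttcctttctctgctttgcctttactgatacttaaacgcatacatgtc
Each of the 3 holds 2 CCAAT boxes, 1 on either strand. The Hist1h2ae window also holds 1 CHR element and, on the other strand only, the TATA letters (TTTATA), which need not serve this gene. The Hist1h2ab window holds TATAAA on the strand of the gene. In the window of Tyms none of the elements searched was found.

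Over the lists, symbols matched a RefSeq promoter for 26 of 33 cell cycle genes and 36 of 39 histone genes. CCAAT, searched on both strands and counted once per promoter whatever it overlaps, was present in 69.2% of the cell cycle promoters, 86.1% of the histone promoters and 37.9% of all 27025 promoters. The CHR letters TTTGAA were in 34.6%, 47.2% and 18.1%, and the E2F letters TTTGGCGC in 15.4%, 0% and 0.537%. TATAAA, searched on both strands at any place in the window, was in 0% of the cell cycle promoters, 63.9% of the histone promoters and 14.2% of all. A match describes the letters only and was not tied to the diet difference of a gene.

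**Figure D3:**
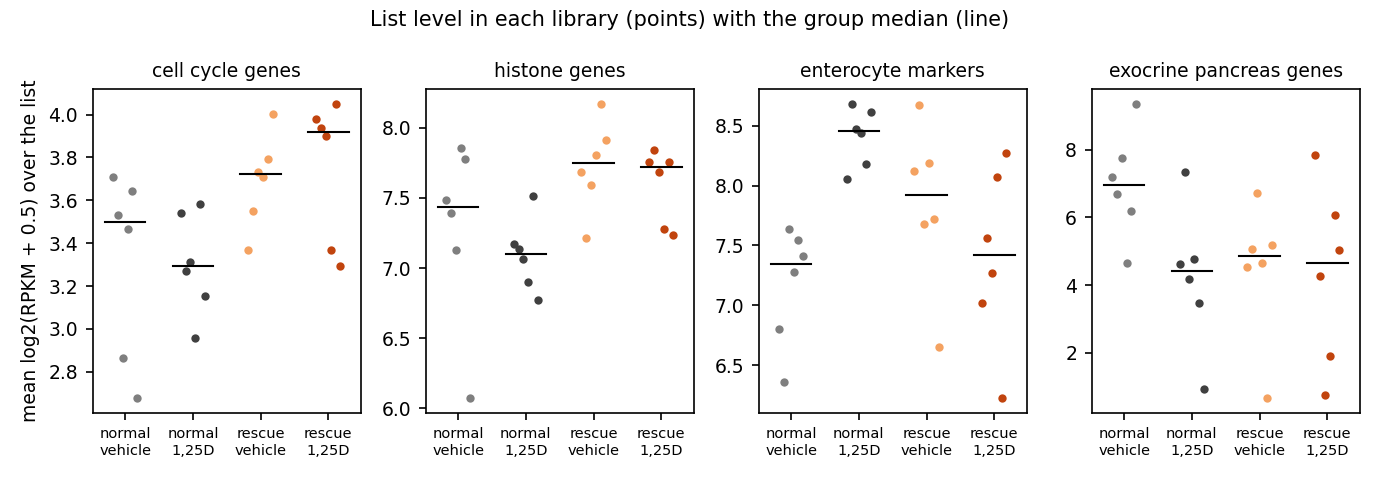
Mean log2(RPKM + 0.5) over 4 lists in each library (points) with the group median (line). For cell cycle and histone genes both rescue medians are above both normal medians, for enterocyte markers the order of the diets turns between the injections, and for exocrine pancreas genes the normal vehicle group is highest.

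Markers of the crypt, where these divisions take place, had smaller medians. Of 15 stem cell markers 13 had a higher mean, near the 76.7% of all genes above 0, with a median log2 difference of 0.13 against 0.10 over all genes. Of the 15, 1 was higher at an unadjusted p under 0.05, near the 9.03% of all genes. It was Olfm4, a secreted protein of crypt base cells, at medians of 298 and 393 RPKM (log2 0.52, SE 0.19, adjusted p = 0.363), with overlapping ranges. Paneth cell markers had a median of 0.21 (0 of 18 at an unadjusted p under 0.05), goblet cell markers 0.06 (0 of 15) and tuft cell markers 0.11 (0 of 8). Over all genes 9.03% were higher and 0.46% lower at that threshold. The part of crypt cell number in the cell division values was not tested.

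Lists of protein folding and of lipid and ribosome synthesis had medians closer to the 0.10 of all genes, with members on both sides of 0. Of 28 genes of the unfolded protein and heat shock response 8 were higher at an unadjusted p under 0.05, beside 9.03% of all genes, with a median of 0.21. Hspd1, the mitochondrial chaperonin, had medians of 105 and 151 RPKM (log2 0.43, SE 0.14, adjusted p = 0.324), and Pdia4, a disulfide isomerase of the endoplasmic reticulum, 95.1 and 134 RPKM (log2 0.38, SE 0.14, adjusted p = 0.384). Of 24 sterol synthesis genes 3 (12.5%) reached an unadjusted p under 0.05 and 18 lay above 0, near the shares over all genes (9.03% and 76.7%), with Fdps, which makes farnesyl diphosphate, at 12.8 and 16.3 RPKM (log2 0.47, SE 0.18), and of 15 fatty acid synthesis genes 3 (20.0%) reached it, with the desaturase Fads1 at 17.6 and 27.8 RPKM (log2 0.45, SE 0.17). Fbl, the methyltransferase of ribosomal RNA processing, had medians of 20.7 and 24.4 RPKM (log2 0.40, SE 0.15) in a ribosome biogenesis list with 4 of 19 (21.05%) at an unadjusted p under 0.05. The 39 cytosolic ribosomal proteins had a median of 0.11, near the 0.10 of all genes.

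Fewer genes lay on the rescue-low side, and the first named here are secreted lectins. Reg1, a secreted C-type lectin of the regenerating gene family, ranged over 959, 2094 and 3105 RPKM on the normal diet and 497, 1263 and 1710 RPKM on the rescue diet. All 12 rescue libraries were below the normal median and 9 normal libraries were above every rescue library, with a log2 difference of -0.75 (SE 0.21, 95% interval -1.18 to -0.32, adjusted p = 0.300). Reg2, a close relative, ranged over 2.44, 51.1 and 597 RPKM against 0, 5.75 and 311 RPKM, a log2 difference of -3.10 with a wide 95% interval of -5.11 to -1.08 (adjusted p = 0.323). Its groups spread so far that 2 rescue libraries were above the normal median. Of the 18 tested Reg and defence genes 2 had an unadjusted p under 0.05, beside 0.46% of all genes, and the median was -0.35. Under vehicle the median was -0.48, with 6 of 18 lower at an unadjusted p under 0.05, beside 0.51% of all genes. After 1,25D it was -0.01, with 2 of 18 lower, beside 3.87%, and 1 of 18 higher, beside 7.7%. The interaction had an unadjusted p under 0.05 on the positive side in 5 of 18, beside 1.26%, and on the negative side in 1, beside 5.59%. Reg genes are also made in the pancreas, whose genes had a median difference of -1.37, and near-identical Reg copies can share reads. The part of pancreas RNA or of shared reads in the Reg values was not tested.

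Sepp1, selenoprotein P, the plasma carrier of selenium, had a median of 357 RPKM on the normal diet and 162 RPKM on the rescue diet, where the highest library, at 350 RPKM, was below the normal median. Its group medians were 285 RPKM (normal, vehicle), 224 (rescue, vehicle), 531 (normal, 1,25D) and 114 (rescue, 1,25D). The log2 difference of -1.0 (SE 0.28, adjusted p = 0.300) averaged -0.14 under vehicle and -1.87 after 1,25D, and the interaction was not called (-1.73, adjusted p = 0.256). With array weights Sepp1 was called (-1.36, adjusted p = 0.0420). The metal-binding protein Mt2, a metallothionein, ranged over 7.76, 16.3 and 42.2 RPKM against 0.435, 7.74 and 35.7 RPKM (log2 -1.29, SE 0.46, adjusted p = 0.363; -2.01, adjusted p = 0.0460, with array weights). Mt1, its neighbour in function, had medians of 17.3 and 8.50 RPKM (log2 -0.60, SE 0.28, adjusted p = 0.499), and reads may be shared between the pair.

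The other lower genes follow with their roles. Gip, the incretin hormone of K cells, ranged over 25.6, 43.6 and 69.7 RPKM against 15.3, 29.4 and 47.2 RPKM (log2 -0.62, SE 0.19, adjusted p = 0.316), with -0.11 under vehicle and -1.13 after 1,25D. Among 20 enteroendocrine markers it was the 1 with an unadjusted p under 0.05 for the average effect (0.46% of all genes were lower), and their median was -0.07. After 1,25D 6 of 20 were lower at an unadjusted p under 0.05, beside 3.87% of all genes, and under vehicle 0, beside 0.51%. On the negative side 6 of 20 had an unadjusted interaction p under 0.05, beside 5.59%. Mchr1, a receptor of melanin-concentrating hormone, had medians of 1.22 and 0.556 RPKM (log2 -0.62, SE 0.17, adjusted p = 0.300; -0.76, adjusted p = 0.0490, with array weights). Ace, the angiotensin-converting peptidase of the brush border, had medians of 16.3 and 12.0 RPKM (log2 -0.49, SE 0.16), and the lysosomal protease Ctsl 16.4 and 13.8 RPKM (log2 -0.31, SE 0.10). Tff2, a trefoil peptide of Brunner's glands and stomach, ranged from 3.76 to 260 RPKM on the normal diet and 0.493 to 133 RPKM on the rescue diet (log2 -1.99, SE 0.72, adjusted p = 0.370). The other 10 tested markers of those glands did not reach an unadjusted p under 0.05. Tpsg1, a mast cell tryptase, had medians of 2.58 and 1.82 RPKM with all 12 rescue libraries below the normal median (log2 -0.37, SE 0.13), while Mcpt1, a mast cell protease, had medians of 1.65 and 3.39 RPKM (log2 0.69, SE 0.26, adjusted p = 0.399). Zmat4 had a log2 difference of -0.64 (SE 0.23), made of -0.09 under vehicle and -1.19 after 1,25D, and Ankrd46 one of -0.23 (SE 0.08). They complete the 12 lower genes with the smallest p among those with a proper symbol and 1 RPKM or more. The immediate early gene Egr1 had medians of 1.96 and 1.13 RPKM with all 12 rescue libraries below the normal median (log2 -0.39, SE 0.15, adjusted p = 0.410). Its group medians were 1.24 and 1.03 RPKM under vehicle and 2.17 and 1.22 RPKM after 1,25D on the normal and rescue diet. Of 23 immediate early genes 3 were lower at an unadjusted p under 0.05, beside 0.46% of all genes. After 1,25D 5 were lower, beside 3.87%, and under vehicle 0, beside 0.51%.

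The rescue diet supplies extra calcium and phosphorus, and the genes that carry these minerals gave no call on average. Of 18 vitamin D target genes 2 were lower at an unadjusted p under 0.05, beside 0.46% of all genes, and their median was -0.10. Under vehicle 2 of 18 were higher (3.68% of all genes) with a median of 0.03, and after 1,25D 4 of 18 were lower (3.87% of all genes) with a median of -0.36. Cyp24a1, the enzyme that breaks down 1,25D, had group medians of 0.557 RPKM (normal, vehicle), 0.237 (rescue, vehicle), 643 (normal, 1,25D) and 441 (rescue, 1,25D), so that the rescue median was the lower one under either injection. Its log2 difference was -0.81 (SE 0.30, 95% interval -1.43 to -0.18, adjusted p = 0.390), -0.74 under vehicle, where all 12 libraries lay at or below 4.03 RPKM, and -0.88 after 1,25D. The other was Cyp27a1, a sterol 27-hydroxylase that can also 25-hydroxylate vitamin D, at medians of 14.5 and 6.81 RPKM (log2 -0.70, SE 0.33, adjusted p = 0.517). Vdr had nearly equal medians of 66.6 and 68.0 RPKM, with a log2 difference of 0.06 and a 95% interval of -0.30 to 0.43; its sign turned with quantile normalization (-0.03).

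None of 13 tested genes of intestinal calcium transport had an unadjusted p under 0.05. Trpv6, through which calcium enters the enterocyte, had medians of 0.266 and 0.142 RPKM under vehicle and 6.46 and 2.47 RPKM after 1,25D on the normal and rescue diet (log2 -0.64, 95% interval -1.31 to 0.03, adjusted p = 0.550). S100g, the calcium-binding carrier calbindin-D9k, had medians of 142 and 165 RPKM under vehicle and 1942 and 1811 RPKM after 1,25D (log2 -0.07, 95% interval -0.94 to 0.80). For Atp2b1, which pumps calcium out of the enterocyte on its basolateral side, the average of 0.06 (95% interval -0.31 to 0.43; -0.02 with quantile normalization) was made of 0.52 under vehicle and -0.40 after 1,25D. Slc37a2, a sugar phosphate exchanger, and Slc30a10, a manganese exporter, showed the same turn, with 0.75 and 0.55 under vehicle, -0.44 and -0.54 after 1,25D, and averages of 0.15 and 0.00 (quantile normalization put Slc30a10 at -0.06). For S100g the interval still holds a change of nearly 2-fold either way.

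Among 12 genes of phosphate transport and alkaline phosphatase, Slc20a2 alone had an unadjusted p under 0.05 for the average effect, near the 9.03% of all genes. The list turned between the injections. Its median was 0.29 under vehicle, with 5 of 12 higher at that threshold, beside 3.68% of all genes. After 1,25D it was -0.26, with 3 of 12 lower, beside 3.87%. On the negative side 6 of 12 had an unadjusted interaction p under 0.05, beside 5.59%. Slc20a2, a sodium-phosphate cotransporter, ranged over 4.01, 6.32 and 7.74 RPKM on the normal diet and 6.42, 8.03 and 9.44 RPKM on the rescue diet. All 12 rescue libraries were above the normal median and 7 were above every normal library, with a log2 difference of 0.32 (SE 0.09, 95% interval 0.13 to 0.51, adjusted p = 0.300). Its relative Slc20a1 had medians of 33.6 and 28 RPKM (log2 -0.09, 95% interval -0.36 to 0.17). Slc34a2, a sodium-phosphate cotransporter, did not pass the filter on low values, with at most 0.54 RPKM in any library. Akp3, an intestinal alkaline phosphatase, had medians of 463 and 482 RPKM and a log2 difference of 0.30 with a 95% interval of -0.47 to 1.07, from 1.20 under vehicle and -0.60 after 1,25D.

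**Figure D4:**
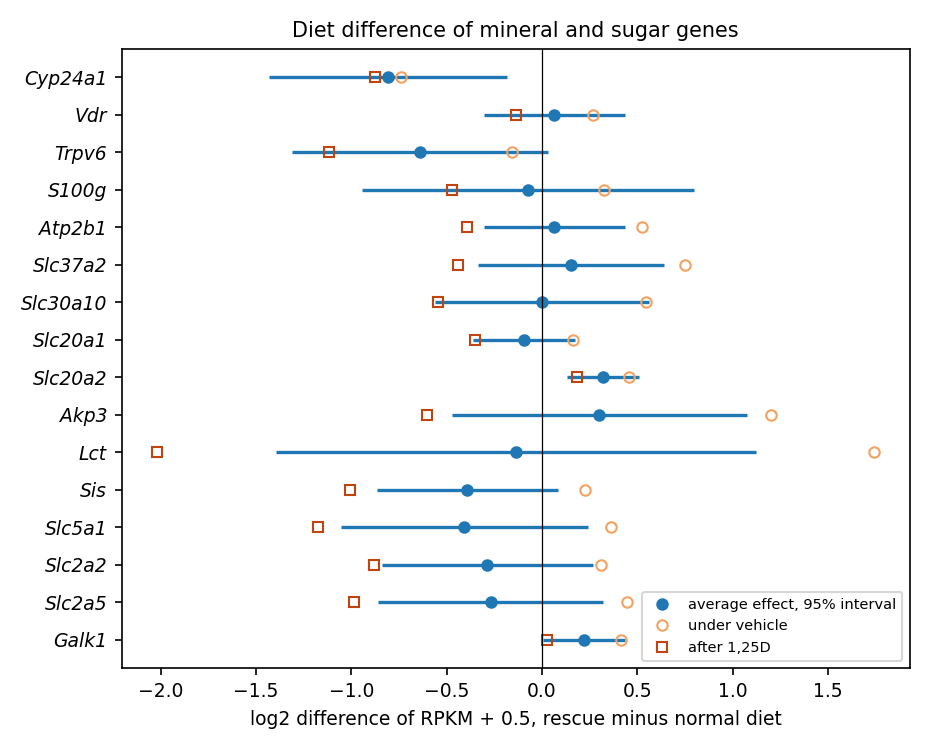
Diet difference (log2 of RPKM + 0.5, rescue minus normal) of 16 mineral and sugar genes: the average effect with its 95% interval (filled circle and bar), and the effect in the 12 vehicle libraries (open circle) and in the 12 1,25D libraries (open square). The open symbols lie on opposite sides of 0 for most absorptive genes, and on the same side for Cyp24a1, Trpv6, Slc20a2 and Galk1.

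The rescue diet also holds lactose, which lactase splits into glucose and galactose. Of 19 members of the sugar list 2 (10.53%) were higher at an unadjusted p under 0.05, a share near the 9.03% of all genes. One of them, Galk1, the kinase that starts galactose breakdown, had medians of 10.2 and 10.1 RPKM and a log2 difference of 0.22 (SE 0.10, adjusted p = 0.513): 5 normal libraries were below every rescue library, yet 5 of 12 rescue libraries were above the normal median. Lct, lactase itself, ranged over 1.73, 63.9 and 238 RPKM against 7.40, 40.7 and 197 RPKM, and its average of -0.14 (95% interval -1.40 to 1.12) joined 1.74 under vehicle with -2.02 after 1,25D. Sis, sucrase-isomaltase, had an average of -0.39 (95% interval -0.86 to 0.08), the sodium-glucose cotransporter Slc5a1 -0.41 (-1.06 to 0.24), the basolateral hexose carrier Slc2a2 -0.29 (-0.84 to 0.27) and the fructose carrier Slc2a5 -0.27 (-0.86 to 0.32). Each of these 4 was positive under vehicle and negative after 1,25D.

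For absorptive genes the average joined opposite differences under the injections. Over all genes 53.6% had the same sign under both, and among the 838 genes with an unadjusted p under 0.05 under vehicle it was 52.5%. None was called under either injection. At an unadjusted p under 0.05 under both, 93 genes agreed in sign, 91 higher and 2 lower, and 87 were opposite. Over all genes 3.68% were higher and 0.51% lower under vehicle, and 7.7% and 3.87% after 1,25D. With independent injections and even signs 49 genes would agree in sign. The signs were not even, so this number is only a rough guide. Enterocyte markers had a median of 0.52 under vehicle and -0.99 after 1,25D, and 14 of 15 had an unadjusted interaction p under 0.05 on the negative side, beside 5.59% of all genes. Of these markers 11 of 15 were lower after 1,25D at an unadjusted p under 0.05, beside 3.87%, and 5 were higher under vehicle, beside 3.68%. Genes of fatty acid uptake and chylomicron assembly (0.39 and -0.53, 19 of 20), xenobiotic enzymes and pumps (0.39 and -0.63, 17 of 29), fatty acid oxidation (0.25 and -0.47, 14 of 27), sugar handling (0.31 and -0.59, 11 of 19) and peptidases and amino acid transporters (0.34 and -0.40, 13 of 24) followed the same order. Their average medians lay between -0.14 and -0.06. The turn was not limited to absorptive lists. Oxidative phosphorylation (0.24 and -0.11, 10 of 35), glycolysis and gluconeogenesis (0.33 and -0.17, 8 of 22) and circadian clock genes (0.18 and -0.26, 7 of 17) also turned, beside the same 5.59%.

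Apoa1, an apolipoprotein of chylomicrons, had group medians of 371 RPKM (normal, vehicle), 511 (rescue, vehicle), 745 (normal, 1,25D) and 226 (rescue, 1,25D), so normal diet with 1,25D was the high group and rescue diet with 1,25D the low one. Its average was -0.61 (SE 0.38, adjusted p = 0.652) and its interaction -2.26 (adjusted p = 0.261). The only gene with a called interaction (1 of 20006, 0.005%) was Upb1, beta-ureidopropionase of pyrimidine breakdown, which was chosen after its values were seen: its diet difference was 0.51 under vehicle and -1.36 after 1,25D (interaction -1.86, SE 0.29, adjusted p = 0.0240).

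**Figure D5:**
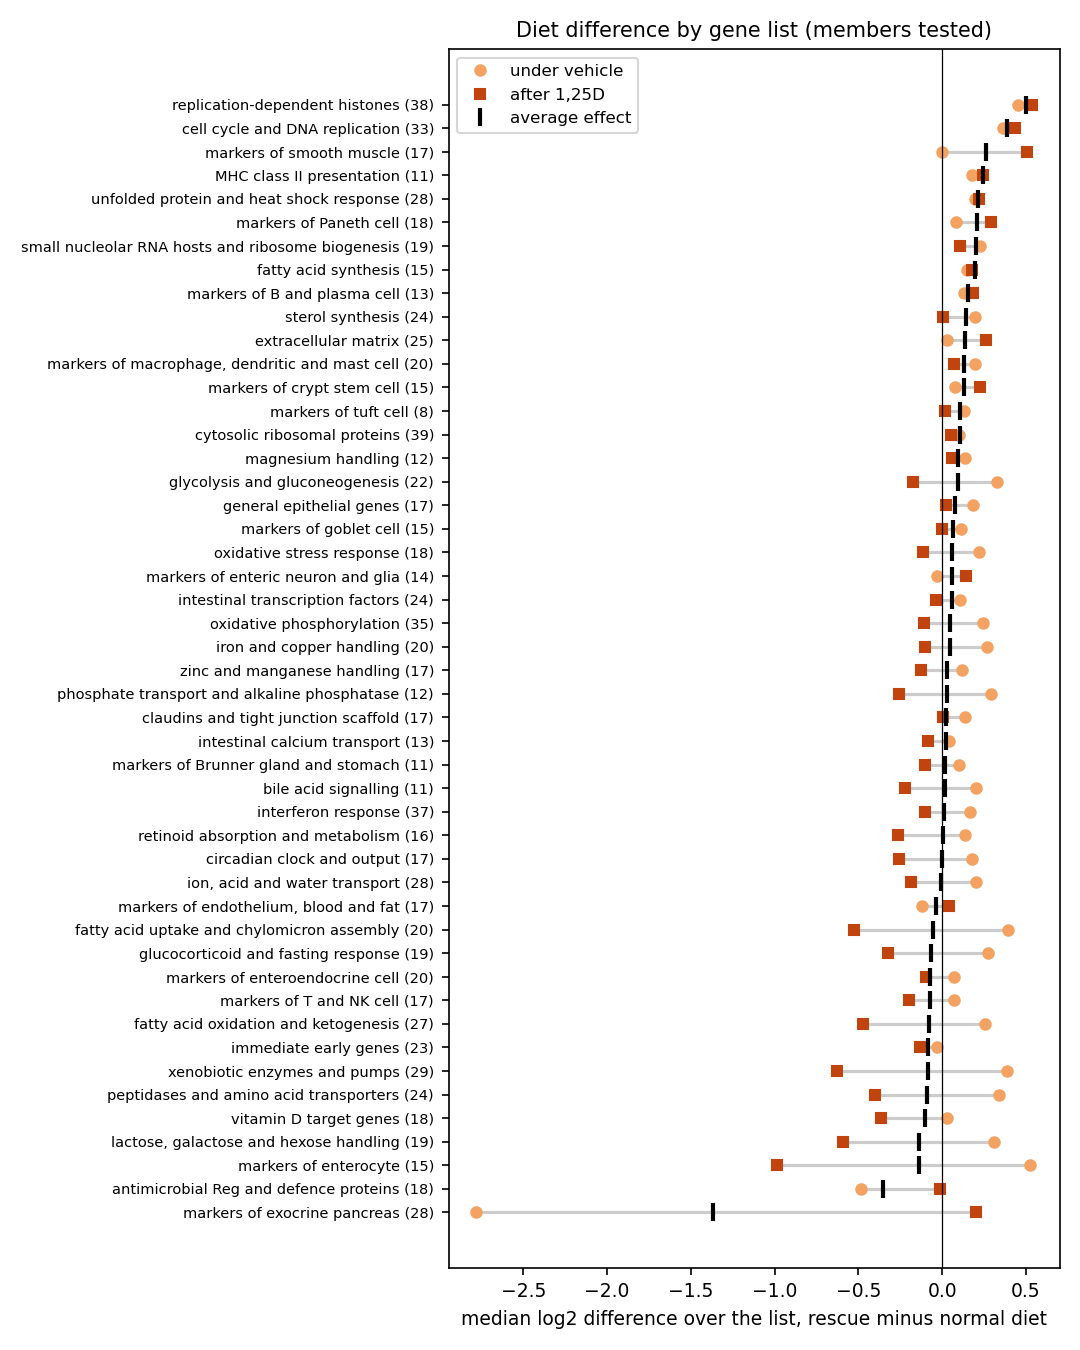
Median log2 diet difference (rescue minus normal) over the tested members of each of the 48 lists, in the 12 vehicle libraries (circle), in the 12 1,25D libraries (square) and on average (bar); the number of members is in parentheses. Histones and cell cycle genes are at the top with both symbols near each other, and absorptive lists in the lower part have circles right and squares left of 0.

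Genes of other tissues were measured too. Exocrine pancreas genes held 0.156, 1.05 and 17.0% of the summed RPKM on the normal diet (lowest, median and highest of 12) and 0.0580, 0.549 and 5.85% on the rescue diet, and the difference of means did not pass an exact permutation test within injections (two-sided p = 0.212, adjusted over 5 single values p = 0.399). All 28 members had a negative average, with a median of -1.37; under vehicle the median was -2.78 (24 of 28 lower at an unadjusted p under 0.05, beside 0.51%) and after 1,25D it was 0.20. Without normal vehicle replicate 6 the median was -1.05 with 27 of 28 below 0, and under vehicle -2.29 with 20 of 28 lower, beside 0.985% of all genes. The share was then 1.68% ± 1.77 (SD, n = 11) on the normal and 1.11% ± 1.63 (SD, n = 12) on the rescue diet (exact permutation within injections, two-sided p = 0.441). Spink3, a trypsin inhibitor, had medians of 17.4 and 11 RPKM (log2 -0.78, adjusted p = 0.405) and Sycn, of the zymogen granule, 25.1 and 8.41 RPKM (log2 -1.55, adjusted p = 0.613). With RPKM rescaled to a common sum outside these genes, 22 of 33 cell cycle genes and 35 of 38 histone genes were higher at an unadjusted p under 0.05, beside 5.2% of all genes, with medians of 0.34 and 0.44.

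Smooth muscle markers, 17 of 17 above 0 beside 76.7% of all genes, had a median of 0.26, 0.00 under vehicle and 0.50 after 1,25D. Of them 1 had an unadjusted p under 0.05, near the 9.03% of all genes. They held 0.0656, 0.0845 and 0.236% of the summed RPKM on the normal diet (lowest, median and highest) and 0.0470, 0.124 and 0.191% on the rescue diet. B and plasma cell markers had a median of 0.15 (3 of 13 higher), T and NK cell markers -0.07 (1 higher and 1 lower of 17), macrophage, dendritic and mast cell markers 0.13 (1 of 20), and MHC class II genes 0.24 (0 of 11). Over all genes 9.03% were higher and 0.46% lower. After 1,25D 7 of 17 T and NK cell markers were lower at an unadjusted p under 0.05, beside 3.87%, and 1 was higher, beside 7.7%. On the negative side 5 of 17 had an unadjusted interaction p under 0.05, beside 5.59%. Interferon response genes had a median of 0.01 (1 of 37). The list of ion, acid and water transport had a median of -0.01, with 2 of 28 higher, near the 9.03% of all genes. After 1,25D 9 of 28 were lower, beside 3.87%, and 1 was higher, beside 7.7%. On the negative side 10 of 28 had an unadjusted interaction p under 0.05, beside 5.59%. In this list the water channel Aqp4 ranged over 4.28, 7.37 and 21.2 RPKM against 8.53, 12.1 and 28.1 RPKM, with all 12 rescue libraries above the normal median (log2 0.60, SE 0.17, adjusted p = 0.300). Its group medians were 14.9 and 14.6 RPKM under vehicle and 6.23 and 11.4 RPKM after 1,25D on the normal and rescue diet, with log2 differences of 0.31 and 0.89. Reg3a, an antimicrobial lectin, had a mean difference of -0.83 that joined -2.11 under vehicle with 0.45 after 1,25D (adjusted p = 0.526). The part of tissue composition in the diet differences was not tested.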

How the data were processed

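RNA sequencing of the duodenum was used from 24 libraries. Ribosomal RNA was depleted from 8 µg of RNA and directional libraries were made, per the labels' protocols. The submitters' processing notes name TopHat and mm9; which version, quantifier or annotation was used is not given in the sources used here. Deposited by the authors was RPKM per entry, per the file headers, and entries sharing a symbol were summed (30795 entries, 25410 symbols). Diet and injection were fitted with limma 3.58.1 (R 4.3.3, intensity trend, two-sided) to log2(RPKM + 0.5) of the 20006 genes at 0.5 RPKM or more in at least 6 libraries, and a Benjamini-Hochberg adjusted p under 0.05 was a call. Differences on this scale understate those of low genes. Each injection alone and the diet by injection interaction were fitted likewise, and single values were compared by exact permutation of diet within injection (Python 3.11.15, scipy 1.17.1). The procedure was tested on simulated data with errors drawn independently for each gene. That test does not cover genes that vary together, a shift from scaling or a library that stands apart.

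The genes named are the called genes, or else the 12 with the smallest p in each direction with a proper symbol and 1 RPKM or more as the mean of the higher diet, up to 4 members with the smallest p of each of 48 lists (1030 of 1056 positions in the files, 973 tested), and a fixed set of vitamin D, mineral and sugar genes; the text names some of them, picked with values seen, and a few are not reported here. The members and lists were chosen with earlier results of these data known. Alternatives covered the pseudocount, filter, scaling, library weights, replicate block, model terms, thresholds and each library left out.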

Additional observations from a re-analysis of the deposited data

Results flagged for a closer look

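With 280 groups of 6 libraries (5 for relative depth in the normal vehicle group) examined, 18 times 1 library stood apart from the others of its group (Dixon's test, whose chance rate is about 1 in 20 groups). In rescue vehicle replicate 6, Foxm1 was at 5.61 RPKM where the others lay between 3.15 and 3.34, Slc2a2 at 55.0 RPKM against 150 to 250, and Sis at 296 RPKM against 766 to 952. In rescue 1,25D replicate 6, Foxm1 was at 2.09 RPKM against 3.11 to 3.88 and Bub1 at 5.56 RPKM against 9.29 to 12.4. In rescue 1,25D replicate 5, Reg1 was at 559 RPKM against 1159 to 1710 and Akp3 at 160 RPKM against 502 to 899. Normal 1,25D replicate 1 had Sepp1 at 244 RPKM against 518 to 588 and Ctsl at 15.6 RPKM against 23.4 to 25.2. Normal vehicle replicate 2 had Traip at 2.91 RPKM against 1.33 to 1.73 and Nespas at 0.841 RPKM against 0.364 to 0.488. Trpv6 was at 0.529 RPKM in rescue vehicle replicate 5 against 0.0740 to 0.160. Galk1 was at 7.66 RPKM in normal 1,25D replicate 4 against 10.2 to 10.8, and at 14.5 RPKM in rescue vehicle replicate 4 against 9.65 to 10.7.

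The exocrine pancreas share of summed RPKM stood apart in 1 library of every group, at 17.0% in normal vehicle replicate 6, 3.60% in normal 1,25D replicate 2, 2.44% in rescue vehicle replicate 3 and 5.85% in rescue 1,25D replicate 1. Upb1 differed between the injections by a test of the difference itself, with a diet effect after 1,25D minus that under vehicle of -1.86 on the log2 scale.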

How the results depend on the processing

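The count of 0 called genes held with pseudocounts of 0.1 and 1, no filter or a stricter one, 3 other scalings, no intensity trend, 1 mean per group, no injection term, either injection alone, the thresholds 0.01 and 0.1, and in each of the 24 fits without 1 library. Array weights gave 50. With the replicate number as a block 1 gene, Snrpb, was called (adjusted p = 0.0470). The labels do not say what a number marks, same-numbered libraries of the diets deviated with correlations between -0.31 and 0.30, and 1 of 12 had its best match in its own number, so the numbers were not taken as pairs. Rescaling outside pancreas genes, the fits of the 2 lead lists and those of pancreas genes without normal vehicle replicate 6 were added after seeing the data. Of 927 values of 62 named genes under these settings, 884 kept direction and side of the threshold, 28 reversed and 15 passed it; of 1488 with 1 library left out, 21 reversed.

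Slc30a10, with an average of 0.00, reversed to -0.0084 (pseudocount 1), -0.064 (quantile), -0.11 (median of ratios), -0.17 (array weights), -0.028 (without normal vehicle 6 and rescue 1,25D 4), -0.54 (1,25D alone) and -0.059 (outside pancreas). Vdr reversed to -0.026 (quantile), -0.046 (median of ratios), -0.14 (array weights), -0.058 (without the 2 libraries) and -0.14 (1,25D alone), and Atp2b1 to -0.0195, -0.048, -0.0203 (quantile, median of ratios, array weights) and -0.40 (1,25D alone). Under vehicle alone the value was 0.32 for S100g, 1.74 for Lct, 0.36 for Slc5a1, 0.31 for Slc2a2, 0.44 for Slc2a5, 0.22 for Sis, 0.16 for Slc20a1, 0.52 for Apoa1 and 0.51 for Upb1, and after 1,25D alone -0.44 for Slc37a2, -0.60 for Akp3 and 0.45 for Reg3a; the cause was not tested. Leaving out 1 library moved Vdr between -0.017 and 0.13, Atp2b1 between -0.022 and 0.16, Slc30a10 between -0.14 and 0.17, S100g between -0.42 and 0.14 and Lct between -0.48 and 0.15. Without counts, depth cannot be set beside single values, and low genes such as Trpv6 rest on few reads.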
